A study of Mus musculus with 2 samples.

Results

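NF-kappaB subunits and their inhibitors were examined as a set of 10 named genes: the subunits Nfkb1, Nfkb2, Rel, Rela and Relb, the inhibitors Nfkbia, Nfkbib and Nfkbie, the co-regulator Bcl3, and Tnfaip3. They were found by gene name among the gene probes of both arrays, which gave 10 of 27597 gene names and 14 of 41174 probes. The study compared CD8+ T cells of Bcl11bF/F/dLck-iCre mice, in which Cre driven by the distal Lck promoter, active in T cells, deletes the floxed gene of the T-cell transcription factor Bcl11b, with CD8+ T cells of wild type mice. All mice carried Listeria monocytogenes-OVA and were sampled at day 6 of infection, negative selection gave cells of a stated purity over 90%, and the labels give neither ages nor the number of mice behind a sample. Each of 2 two-colour Agilent arrays held 1 biological replicate, with deficient RNA in Cy5 (red) and wild-type RNA in Cy3 (green) on both, so an effect of the dye and one of the genotype cannot be told apart.

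NF-kappaB is a family of dimeric transcription factors held in the cytoplasm of resting cells by inhibitors of the IkappaB family. In the canonical route, receptors such as the T-cell receptor activate a kinase complex that marks the inhibitor for destruction and frees dimers of Rela, Rel and the processed product of Nfkb1. In the non-canonical route, TNF-family receptors lead to processing of the Nfkb2 product and release of its dimers with Relb. NF-kappaB in turn induces several of its own brakes, among them Nfkbia and Tnfaip3, and in T cells it serves activation and survival.

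Because of that feedback, the sequences just before the start sites of the members were read from RefSeq's promoter table (build GRCm38.p6), where 8 of the 10 genes (not Nfkb1 and Relb) were matched, in 11 windows of 250 bases. The kappaB consensus, searched by that name on both strands, was present in 7 of these 11 windows, which belong to Nfkb2, Rel, Nfkbia, Nfkbie and Tnfaip3, and in 7.25% of 32851 such windows over all genes. Printed here are 3 windows with a match and that of Rela without one. Capitals mark bases inside a match, and overlapping matches run together. A match in these letters is a description and not a measured binding site.
Nfkb2, chr19:46304487-46304736, plus strand: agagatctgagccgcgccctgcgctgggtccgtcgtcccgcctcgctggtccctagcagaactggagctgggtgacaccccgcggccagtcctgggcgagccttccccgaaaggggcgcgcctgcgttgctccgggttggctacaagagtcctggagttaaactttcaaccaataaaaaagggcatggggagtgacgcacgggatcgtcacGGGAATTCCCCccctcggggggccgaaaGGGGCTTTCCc
Nfkbia, chr12:55492648-55492897, minus strand: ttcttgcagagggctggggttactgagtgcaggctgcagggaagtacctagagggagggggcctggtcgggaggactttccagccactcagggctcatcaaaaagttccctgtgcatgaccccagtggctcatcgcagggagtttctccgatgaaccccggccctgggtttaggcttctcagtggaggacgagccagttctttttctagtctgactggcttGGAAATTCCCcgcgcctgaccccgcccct
Tnfaip3, chr10:19015411-19015660, minus strand: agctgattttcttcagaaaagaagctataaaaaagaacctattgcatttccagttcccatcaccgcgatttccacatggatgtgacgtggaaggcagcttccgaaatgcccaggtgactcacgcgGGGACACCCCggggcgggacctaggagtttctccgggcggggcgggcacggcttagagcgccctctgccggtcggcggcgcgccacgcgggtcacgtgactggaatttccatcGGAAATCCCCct
Rela, chr19:5637291-5637540, plus strand: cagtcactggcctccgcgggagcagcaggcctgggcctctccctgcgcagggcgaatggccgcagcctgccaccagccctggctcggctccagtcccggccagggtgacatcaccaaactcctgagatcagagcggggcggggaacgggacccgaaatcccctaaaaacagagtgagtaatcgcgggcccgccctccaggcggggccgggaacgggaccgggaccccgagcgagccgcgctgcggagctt

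Of the 10 genes, 9 were measured, meaning that a probe was well above background in the same colour on both arrays, and 12 of the 14 probes met that rule. The median log2 ratio of the 9 genes, deficient over wild type, was 0.08, with -0.03 on replicate 1 and 0.38 on replicate 2, against -0.12, -0.22 and -0.01 over all 9931 genes tested. limma called 0 of the 9 at an adjusted p under 0.05. An unadjusted p under 0.05 was found for 1 of them (Relb), and for 2175 of all 9931 genes. In the same fit 9.64% of all genes were called (3.67% higher and 5.97% lower). In this fit of genes the prior degrees of freedom that limma estimated were infinite. Every gene thus got the same standard error of 0.42, whatever its own spread between the 2 arrays. The SD given for a gene therefore does not enter its own p-value in this fit. The smallest absolute log2 ratio called was 1.18, and no measured member reached that mean. A missing call therefore does not show equal expression.

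Per-array ratios of the members spread on both sides of 0. On replicate 1, 4 of 9 ratios were above 0, and on replicate 2, 7 of 9, against 41.5% and 49.5% of all genes. Relb, Nfkbia and Nfkbib were above 0 on both arrays, Nfkb1 was below 0 on both, and the remaining 5 changed sign between arrays. Of all genes, 32.5% were above 0 on both arrays and 41.5% below 0 on both. Listed from high to low by the mean, the order was Relb, Nfkbib, Nfkb2, Nfkbia, Nfkbie, Rela, Bcl3, Tnfaip3 and Nfkb1. Neighbours in this order were 0.02 to 0.54 apart on the log2 scale, each less than the standard error of such a difference, 0.59.

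**Figure D1:**
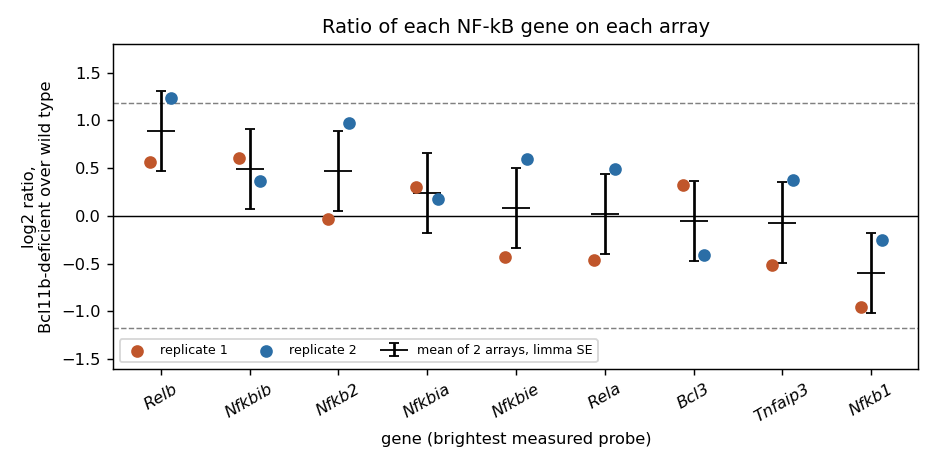
Log2 ratio (vertical axis, deficient over wild type) of each of the 9 measured genes by its brightest measured probe. Points are the 2 arrays, black bars the mean with the limma standard error of 0.42, and dashed lines the smallest absolute mean called over all genes, 1.18; every mean lies between the dashed lines and Relb is highest.

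Among the subunits, Relb, the partner of the processed Nfkb2 product, had the highest ratio. Its probe (NM_009046, chromosome 7, 18764895 to 18764954, build NCBI36, also called mm8) had normalised intensities of 2783 and 3625 in deficient cells on replicates 1 and 2, against 1888 and 1548 in wild-type cells. Both deficient values lay above both wild-type values. For this and the other members, the share of all genes that separate in this way was not computed. Such separation needs the same sign on both arrays, which 74% of all genes had. The log2 ratio was 0.56 on replicate 1 and 1.23 on replicate 2, with a mean of 0.89 ± 0.47 (SD, n = 2; limma adjusted p = 0.174). That mean stands at percentile 93.6 of all genes and did not pass the test. It passed where only probes well above background in both colours were tested (limma adjusted p = 0.0366), with the mean unchanged at 0.89. That setting called 552 genes higher and 216 lower, against 364 and 593 in the main fit. The median over all genes was 0.06 there, against -0.12. With median centring in place of loess the mean was 0.17, and the arrays differed in sign (-0.69 on replicate 1 and 1.03 on replicate 2). Relb is abundant in dendritic cells and B cells. Of measured markers, 2 of 3 for dendritic cells and 5 of 8 for B cells were called higher in the same samples (their values follow), against 3.67% of all genes. A part of such cells in this ratio was not tested.

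Nfkb2, the gene for the precursor processed in the non-canonical route, had intensities of 1077 and 1686 in deficient cells, against 1102 and 863 in wild-type cells (NM_019408, chromosome 19, 46364967 to 46365106). The groups overlapped: the deficient value of replicate 1 lay between the wild-type values, and that of replicate 2 above both. Its log2 ratios were -0.03 and 0.97, with a mean of 0.47 ± 0.71 (SD, n = 2; limma adjusted p = 0.534).

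Rela encodes the main transactivating subunit of the canonical route. Its brighter probe (NM_009045, chromosome 19, 5647632 to 5647691) had intensities of 2117 and 4703 in deficient cells, against 2905 and 3347 in wild-type cells. Deficient cells held both the lowest and the highest of the 4 values, and the ratios of -0.46 and 0.49 gave a mean of 0.02 ± 0.67 (SD, n = 2; limma adjusted p = 0.987). A dimmer Rela probe (chromosome 19, 5647136 to 5647195) and printed in 10 spots, gave -1.19 and 0.05, so its values again differed in sign between arrays. On replicate 1 none of its deficient spots was well above background, and their mean signal of 967.2 was close to the negative control median of 968.4.

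Nfkb1 encodes the precursor of the small DNA-binding subunit of the canonical route, and was the lowest of the measured members. By its brightest probe (BC050841, chromosome 3, 135549567 to 135549626) the intensities were 611 and 832 in deficient cells, against 1186 and 989 in wild-type cells. Both deficient values lay below both wild-type values. The ratios were -0.96 and -0.25, with a mean of -0.60 ± 0.50 (SD, n = 2; limma adjusted p = 0.413), and the Cy5 signal passed the background test only on replicate 2.

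The other Nfkb1 probes differed in size from the brightest. One (AK048506, chromosome 3, 135548598 to 135548657) had ratios of -0.55 and 0.02, and its Cy5 signal passed the background test only on replicate 2. Another (AK036827, chromosome 3, 135555618 to 135555677) had -0.59 and -0.08, and was left out of the tests because wild-type RNA was well above background on 1 of 2 arrays and deficient RNA on neither. The fourth (M57999, chromosome 3, 135522133 to 135522194), lies 26465 to 33485 bases downstream of the others on this minus-strand gene. It had the lowest ratios of any member probe, -2.81 and -0.65.

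That downstream Nfkb1 probe passed when each probe was tested on its own (mean -1.73 ± 1.53, SD, n = 2; limma adjusted p = 0.0129 over 12622 probes, of which 7.61% were called). It was printed in 10 spots, and the spots agreed closely within an array. On replicate 1 the 9 spots used ran from -2.92 to -2.64, with an SD over spots of 0.10, and on replicate 2 all 10 ran from -0.76 to -0.55, with an SD of 0.07. The gap between the arrays was thus far wider than that between spots, which share their RNA and are not replicates. Its deficient signal averaged 763.2 on replicate 1 and 921.7 on replicate 2, which is 0.79 and 1.30 times the median of the negative control spots, and no deficient spot was well above background on either array. Wild-type signals of 626.9 and 664.7 were 1.92 and 1.64 times theirs, well above background in all 10 spots on both arrays. A fold could therefore not be measured directly. Against the lowest deficient levels well above background (383 and 415), wild-type normalised intensity was 1.51-fold higher. That is not a guaranteed minimum, since the brightest Nfkb1 probe, at 611 in deficient cells on replicate 1, failed the background test there. Over 6 other settings of the ratio, chosen after seeing the data, the mean of this probe ran from -2.90 to -0.83 and passed in 1, with a normexp offset of 16 (adjusted p = 0.00468); the lowest mean, after subtraction of the negative control median, had an adjusted p of 0.424.

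**Figure D2:**
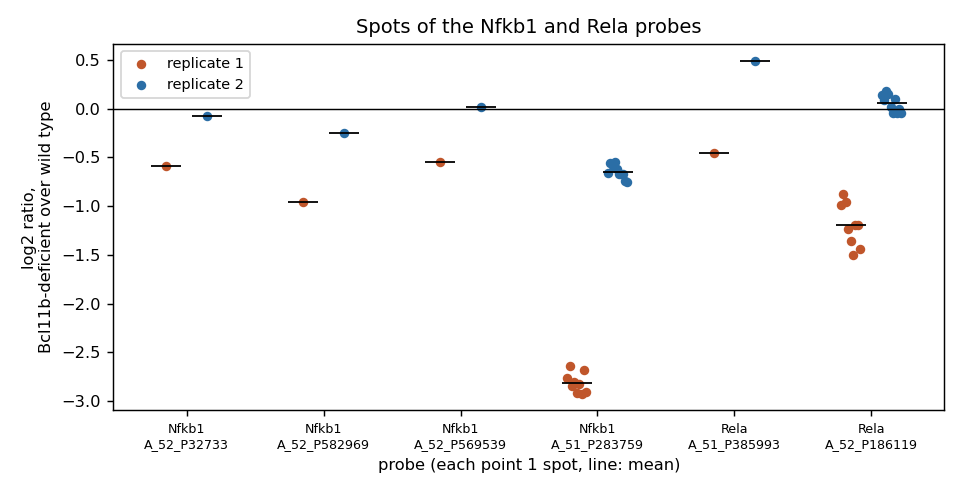
Log2 ratio (vertical axis, deficient over wild type) of every used spot of the 4 Nfkb1 and 2 Rela probes (horizontal axis), coloured by array, with a line at the mean. Spots of the downstream Nfkb1 probe A_51_P283759 lie between -2.92 and -2.64 on replicate 1 and between -0.76 and -0.55 on replicate 2.

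Rel, which encodes the subunit c-Rel of activated lymphocytes, could not be compared. Its single probe (NM_009044, chromosome 11, 23641729 to 23641743) had mean signals of 1315.8 and 896.5 in the deficient colour, against 399.7 and 485.5 in the wild-type colour, before any correction. None of the 4 was well above background, and the negative control spots alone reached a median of 968.4 and 706.9 in the deficient colour and 326.5 and 406.1 in the wild-type colour. No fold is given for this gene.

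Set side by side, the subunits of the non-canonical route (Nfkb2 and Relb) had higher ratios than those of the canonical route (Nfkb1 and Rela) on each array, a grouping made after the values were seen and given without a test. Their mean log2 ratios were 0.26 against -0.71 on replicate 1 and 1.10 against 0.12 on replicate 2. The difference was 0.97 and 0.98. Under 14 other settings that gave all 4 genes a value, it stayed between 0.74 and 1.25 in the mean, and the lower of the non-canonical ratios stayed above the higher of the canonical ones on both arrays in 14 of 14. The replicate 1 difference uses an Nfkb1 value whose Cy5 signal did not pass the background test, and with both colours required above background Nfkb1 had no value and the difference could not be computed. Most of these settings reuse the same ratios, so they are not independent checks, and Relb and Nfkb2 each rest on 1 probe.

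None of the 3 IkappaB inhibitors passed the test, and the sign of each mean, above 0 as reported, changed under at least 1 other setting. Nfkbia, the inhibitor that NF-kappaB itself induces, had normalised intensities of 7308 and 6734 in deficient cells, against 5947 and 5959 in wild-type cells (NM_010907, chromosome 12, 56408088 to 56408583). Both deficient values were the higher ones, by little. Its ratios of 0.30 and 0.18 gave the smallest spread of the family, a mean of 0.24 ± 0.09 (SD, n = 2; limma adjusted p = 0.769), with a 95% interval from -0.58 to 1.06 in the fit. With median centring the mean of Nfkbia was -0.67 and that of Nfkbib -0.12, and Nfkbie was at -0.14 to -0.01 in 4 other settings.

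Nfkbib, an inhibitor degraded more slowly than that of Nfkbia, had intensities of 2031 and 1565 in deficient cells, against 1328 and 1222 in wild-type cells (NM_010908, chromosome 7, 28467908 to 28468589). The groups did not overlap, and the ratios were 0.61 and 0.36, with a mean of 0.49 ± 0.18 (SD, n = 2; limma adjusted p = 0.517). Nfkbie, the third inhibitor, had 575 and 862 in deficient cells, against 776 and 569 in wild-type cells (NM_008690, chromosome 17, 45026632 to 45026691). Its groups overlapped, and its ratios of -0.43 and 0.60 gave a mean of 0.08 ± 0.73 (SD, n = 2; limma adjusted p = 0.927). On replicate 1 its deficient colour was not well above background.

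Bcl3, an atypical IkappaB protein that works in the nucleus with dimers of the small subunits, had intensities of 3426 and 1836 in deficient cells, against 2753 and 2433 in wild-type cells (NM_033601, chromosome 7, 18967035 to 18967094). Deficient cells held the highest and the lowest value, and Bcl3 was above 0 on replicate 1 (0.32) and below 0 on replicate 2 (-0.41). The mean was -0.05 ± 0.51 (SD, n = 2; limma adjusted p = 0.962). Tnfaip3, a ubiquitin-editing enzyme that shuts off signalling to the kinase complex, had 1495 and 2312 in deficient cells, against 2135 and 1774 in wild-type cells (NM_009397, chromosome 10, 18690604 to 18690663). Its ratios ran the other way, -0.51 and 0.38, with a mean of -0.07 ± 0.63 (SD, n = 2; limma adjusted p = 0.944).

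**Figure D3:**
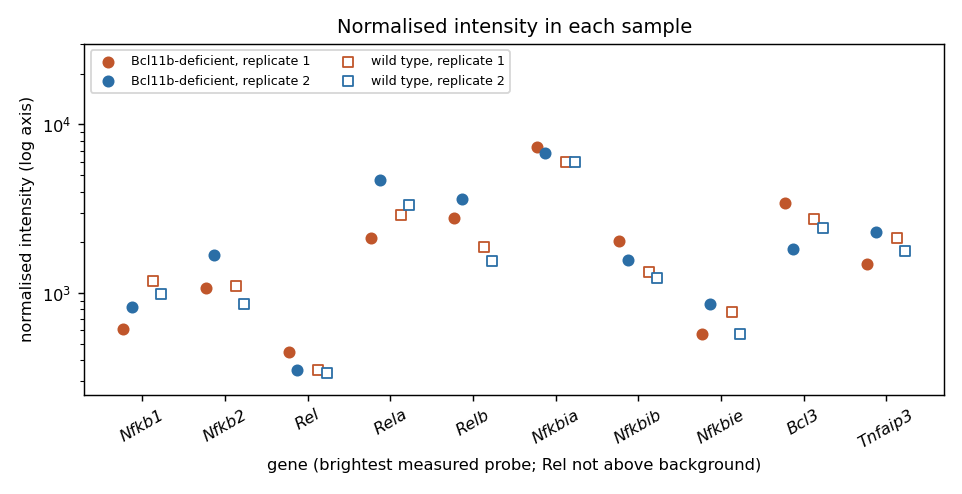
Normalised intensity (vertical log axis) of each gene in every sample, with filled circles for deficient cells left of open squares for wild-type cells, coloured by array. For Relb, Nfkbia and Nfkbib both circles lie above both squares, and for Nfkb1 below them. The share of all genes that separate in this way was not computed, and 74% of all genes had the same sign on both arrays. Rel is shown although it was not well above background, and heights of different genes cannot be compared.

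Genes around the family were described by lists of the pathway. Of 17 measured activation kinases and adaptors, limma called 2 lower and 0 higher, near the 9.64% called over all genes; their median was -0.07, with -0.74 on replicate 1 and -0.03 on replicate 2. Tbk1, a kinase related to those of the IkappaB kinase complex, was at -3.09 and -0.11 (adjusted p = 0.00372), but on replicate 1 its Cy5 signal did not pass the background test, so that value, and the call that uses it, set wild-type RNA against background. Ikbke, its close relative, was at -1.66 and -1.28 (adjusted p = 0.00936), where Cy5 passed the background test on neither array. Against the lowest deficient levels well above background its wild-type RNA was 2.38-fold higher, which is not a guaranteed minimum. Prkcq, the protein kinase that links the T-cell receptor to NF-kappaB, stood at -1.16 ± 0.03 (SD, n = 2; adjusted p = 0.0546), and Malt1, the protease of the adaptor complex downstream of it, at -0.90 ± 0.69 (SD, n = 2; adjusted p = 0.172), with Cy5 above background on 1 of 2 arrays. The last 2 did not pass.

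Of 13 other negative regulators limma called 0 (median -0.06), beside 9.64% called over all genes. The 4 with the smallest adjusted p were Nfkbil1 at 1.14 ± 0.72, the deubiquitinase Cyld at -0.95 ± 0.76, the ubiquitin ligase Itch at -0.94 ± 1.52 and Trim30a at 0.82 ± 0.23 (SD, n = 2 each, adjusted p from 0.0614 to 0.227). For Cyld and Itch the Cy5 signal of replicate 1 did not pass the background test, and Itch was at -2.02 there and at 0.13 on replicate 2. Of 12 receptors limma called 1 lower and 0 higher (median 0.46), beside 5.97% lower and 3.67% higher over all genes. The receptor called was the costimulatory Cd28 at -1.74 ± 0.83 (adjusted p = 0.00131), whose Cy5 signal passed the background test on neither array. Against the lowest deficient levels well above background its wild-type RNA was 1.66-fold higher, which is not a guaranteed minimum. Cd27, a TNF-family receptor of T cells, stood at -0.93 ± 0.25 and Tnfrsf13c, the B-cell receptor for the survival factor BAFF, at 0.69 ± 0.64 without passing. For Ltbr, the lymphotoxin beta receptor, Cy3 passed the background test on neither array (adjusted p = 0.254). Against the lowest wild-type levels well above background its deficient RNA was 1.51-fold higher, again not a guaranteed minimum.

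Among known target genes of NF-kappaB, 20 were measured, of which 6 rose and 2 fell, with a median of 0.39, against 3.67% higher, 5.97% lower and a median of -0.12 over all genes. The 4 with the smallest adjusted p were the adhesion molecule Vcam1 (3.32 ± 0.07), Cd83, a marker of mature dendritic cells (2.00 ± 0.70), the chemokine Ccl5 (1.67 ± 0.38) and, downward, the growth regulator Myc (-1.57 ± 0.21; SD, n = 2 each, adjusted p from 3.15e-12 to 0.00474). The Cy5 signal of Myc passed the background test on 1 of 2 arrays. Tnfaip2 (1.55 ± 0.60), Gadd45b (1.52 ± 0.12) and Il1b (1.35 ± 0.63) rose and Ccnd2 (-1.42 ± 0.31) fell too (SD, n = 2 each, limma adjusted p from 0.00526 to 0.0198). These and Icam1 (0.62 ± 0.43), Birc3 (0.17 ± 0.69), Tnf (0.41 ± 0.48) and Irf1 (-0.22 ± 0.08), of which the last 4 did not pass, were chosen after their values were seen. Vcam1 also stands in the macrophage marker list, and Il1b is a cytokine that myeloid cells make.

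**Figure D4:**
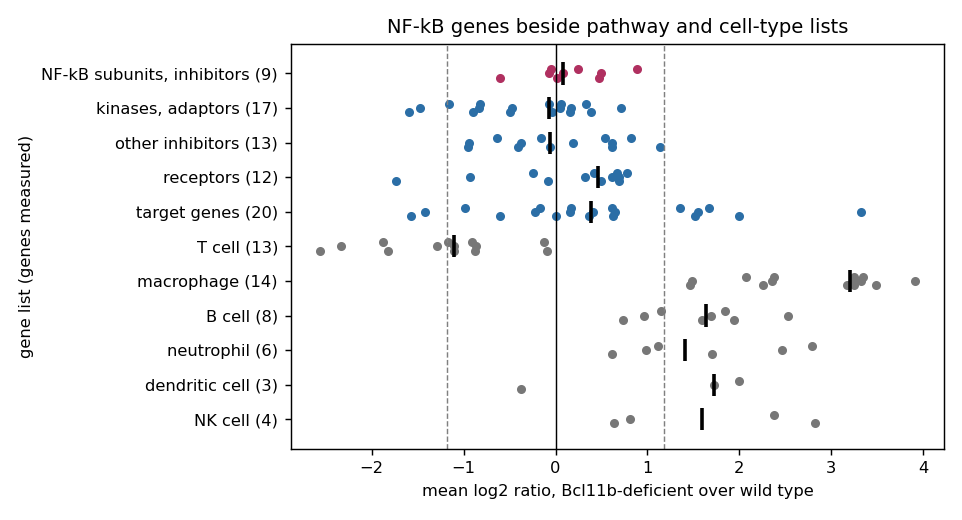
Mean log2 ratio (horizontal axis, deficient over wild type) of every measured gene of the NF-kappaB set, of 4 pathway lists and of 6 cell-type marker lists, with the number measured in brackets and a black bar at the median. Dashed lines mark 1.18 in either direction; the family has its median at 0.08 while macrophage markers have theirs at 3.20 and T-cell markers at -1.10.

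Markers of several other cell types were higher in the deficient samples, where 3.67% of all genes were called higher and 5.97% lower. All 14 measured macrophage and monocyte markers were called higher (median 3.20), with summed normalised intensities of 279467 and 223536 in deficient samples, against 35091 and 23275 in wild-type samples. Of 8 B-cell markers 5 were called higher (121425 and 198589 in deficient samples, against 48785 and 33723 in wild-type samples). Of 7 dendritic cell markers listed, 3 were measured and 2 called higher (4470 and 11412 in deficient samples, against 2665 and 2341 in wild-type samples). The third, Xcr1, was at -1.76 and 0.99 (mean -0.38), with Cy5 above background on 1 of 2 arrays. Neutrophil markers gave 3 of 6 higher (86800 and 52043 in deficient samples, against 12015 and 10194 in wild-type samples). Natural killer cell markers gave 2 of 4 (17372 and 12342 in deficient samples, against 3286 and 2496 in wild-type samples). Most of the deficient sums came from Tyrobp alone (14493 and 8128), which was called higher with Klrb1c. Eomes and Ncr1 did not pass (limma adjusted p = 0.234 and 0.378). Of 13 T-cell markers 5 were called lower (123458 and 86358 in deficient samples, against 211863 and 245292 in wild-type samples). Bcl11b itself was at -0.69 and -2.95 (adjusted p = 0.000655), and whether its probe lies in the deleted part is not given in the sources used here. Fewer cells of a type and less RNA per cell cannot be told apart in such samples, and the part of cell composition in any ratio above was not tested.

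With median centring in place of loess the median of the measured members was -0.67, beside -0.41 for all genes. Over all genes that setting called 69 higher and 348 lower (83.5% of calls lower), where loess called 364 higher and 593 lower (62.0%). Under that setting Relb (0.17), Nfkb2 (0.05) and Nfkbie (0.04) had means above 0, and the other measured members had means below 0.

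**Figure D5:**
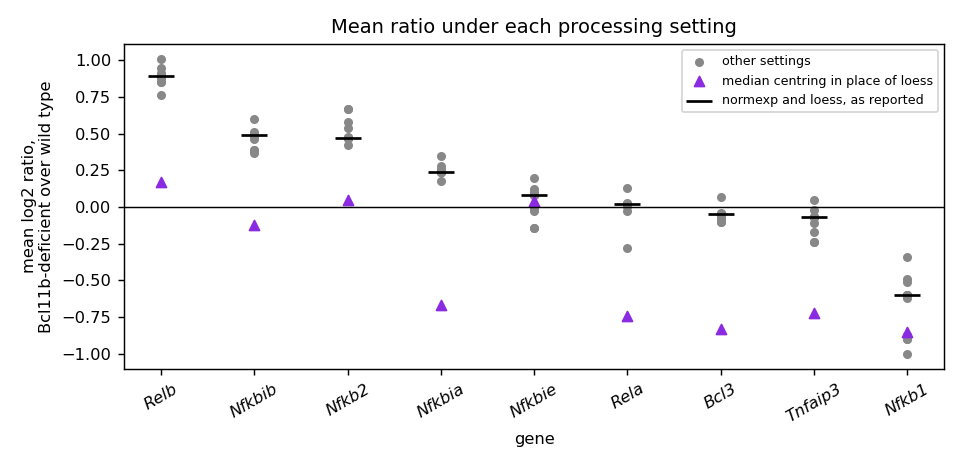
Mean log2 ratio (vertical axis, deficient over wild type) of each measured gene under the setting reported (black bar), under median centring in place of loess (triangles) and under the other settings (grey points). The mean of Relb stays between 0.17 and 1.01, and that of Nfkb1 stays below 0, with -0.34 as its highest. With median centring Relb was at -0.69 on replicate 1 and 1.03 on replicate 2.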

How the data were processed

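RNA was amplified before chemical dye labelling, per the labels' protocols. Each array was scanned and quantified with Agilent Feature Extraction 9.5.3.1, per the file headers and the submitters' processing notes. The deposited scanner files hold intensity values (mean signal and local background), 0 or 1 flags, and a log10 ratio of red over green after a background surface and dye normalization, per the file headers. The same log10 ratio fills the deposited value table (largest difference 0.00500).

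Background was corrected with normexp (offset 50) and ratios were normalized by loess within arrays, not between arrays. Flagged outlier spots were left out and spots of a probe averaged. Of 41174 probes, 24375 were named by accession and 8727 by symbol or synonym through a RefSeq table (GRCm38.p6); members were taken by the array's gene name. Probes well above background in the same colour on both arrays were kept (12622 probes, 9931 genes), and the brightest stood for its gene. limma 3.58.1 (R 4.3.3) tested the log2 ratios against 0 (two-sided, Benjamini-Hochberg). Normalised intensities are per colour after loess and Aquantile. For a group above background on neither array, a fold sets the brighter group against the higher of the dim probe and the lowest level well above background. Some probes that failed the background test lay above that level, so such a fold is not a minimum. Data were also simulated with normal noise of the same variance (0.35) for every gene (9931 genes, 200 changed). There, 15.5% of changes of 1 on the log2 scale were recovered, and 91.0% of changes of 2. These shares hold for that noise model only.

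The members and lists were chosen with earlier results of these data known. All members and their probes are named, with Bcl11b and the 4 genes of each pathway list with the smallest adjusted p. Further target genes and some markers are named outside that rule, after their values were seen. Coordinates of probes come from the arrays' annotation.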

Additional observations from a re-analysis of the deposited data

How the results depend on the processing

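The 2 arrays are pairs by construction, since each ratio sets both genotypes side by side; a fit of separate channels, with no replicate block, kept every member's mean and called 0 members and 0 genes (1987 genes at an unadjusted p under 0.05). Among 15 other settings with a test, 1 member passed in 2 of them: Relb higher with both colours well above background (7 members measured), and Nfkb1 lower through its downstream probe with each probe tested on its own. In the other 13, 0 members passed. The median of the members was 0.08 and moved to -0.67 with median centring; without a replicate it was 0.38 (without replicate 1) and -0.03 (without replicate 2), where a single array gives no test. Means that changed sign, none of them called, were Nfkbie at -0.14 with the Feature Extraction ratio and in the value table, -0.03 with its background surface and -0.01 with the negative control median subtracted; Rela at -0.03 with that subtraction, -0.74 with median centring and -0.28 as the mean of its probes; Nfkbia at -0.67 and Nfkbib at -0.12 with median centring; and Bcl3 at 0.07 and Tnfaip3 at 0.05 after centring every array on the median gene. The cause was not tested. Over all genes, 364 higher and 593 lower (62.0% of calls lower) became 50 and 65 with Feature Extraction ratios, 293 and 189 without background correction, 233 and 176 with the background surface, 69 and 348 with median centring, 538 and 561 with centring on the genes' median and 552 and 216 with both colours above background. They were 0 and 0 with the negative control median subtracted (1266 genes at an unadjusted p under 0.05) or with no filter (5116). The low number of arrays limits the precision, and dim members (Nfkb1, Nfkbie, Rel) also their signal over background.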
